A study of Mus musculus with 30 samples.

Results

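The genes described here encode the proteins of the cytosolic ribosome. They were chosen by name: protein-coding genes whose symbol is Rpl or Rps followed by a number, with at most 1 suffix, together with Rpsa, Rplp0, Rplp1 and Rplp2. The rule found 83 genes of the 50686 in the annotation, 51 of the large subunit and 32 of the small subunit. It left out 6 pseudogenes with matching symbols, among them Rps4l. Of the 83 members, 81 had enough counts to be tested, and Rpl3l and Rpl10l did not.

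Each ribosome carries 1 copy of nearly every one of these proteins, so a cell makes them in matched amounts and from genes that are among its most active. The messenger RNAs of ribosomal proteins begin with a C followed by a run of pyrimidines, the terminal oligopyrimidine tract, through which mTOR signalling controls their translation. Some members have a second gene, a paralogue such as Rpl22l1 beside Rpl22, whose product can take the same place in the particle. Osteoclasts, which dissolve bone, are large cells with many nuclei that form when macrophage precursors fuse.

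The study measured polyadenylated RNA in 30 libraries of mouse cells labelled as osteoclasts, 3 in each of 10 groups, to ask how donor age and loss of Terc, the RNA template of telomerase, affect gene expression. The donors were C57BL/6J mice, whose bone marrow gave macrophages that were then kept in RANKL (100 ng/ml), the cytokine that drives osteoclast formation, with M-CSF (25 ng/ml), which keeps macrophages alive. The main groups were wild type (WT) and Terc-/- (KO) cultures grown until large multinucleated cells had appeared, from donors of 1 and 6 months, and WT cultures of that stage from donors of 20 months. WT cultures from donors of 6 and 20 months were also collected after 2 days of cytokines, and are called 2-day cultures. A further 2 groups of KO multinucleated cultures, from donors of 1 and 6 months, carry the number 519 in their titles (set 519), and 1 group of WT multinucleated cultures from donors of 1 month carries a tag that begins with D1 (set D1). The labels explain neither mark, so these libraries were kept apart. The labels do not say whether replicate numbers stand for separate animals. Every p-value here therefore reflects the scatter among libraries within groups, and that scatter may be technical. The main fit pools it over all 10 groups.

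Total counts per library ran from 4269798 to 25147975, and the 6 libraries of set 519 were the shallowest, with 4269798 to 12987993. Terc had 5 counts in all, spread over 3 of the 18 WT libraries, and 0 in the 12 KO libraries, which checks the labels only weakly. Set D1 stood apart: Xist, which is made from the inactive X chromosome of female cells, reached 816 to 908 CPM there (counts scaled to a library total of 1000000), against at most 0.454 CPM in every other library. The labelled cell type was uneven too. Summed over 11 osteoclast markers, the level was 2378 to 2507 CPM in WT cultures of 1 month, 675 to 738 in KO cultures of 1 month, 20849 to 22500 in WT multinucleated cultures of 6 months and 44282 to 46720 in set D1. The 2-day cultures had 3672 to 4307 CPM at 6 months and 4700 to 4857 at 20 months. Those levels lay above the WT and KO cultures of 1 month just given, and above KO cultures of 6 months (2479 to 2778 CPM). Cultures labelled as multinucleated were thus not matched in these markers. In bulk RNA of this kind, fewer cells of a type and less RNA per cell cannot be told apart.

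The share of all counts that fell in the 83 genes was highest in the WT cultures of 1 month and lowest in the same genotype and age of set D1. It was 5.23%, 4.43% and 4.44% in the 3 WT libraries of 1 month, and 3.91%, 3.15% and 3.55% in the 3 KO libraries of 1 month. In set D1 it was 2.47%, 2.42% and 2.47%. The WT libraries of 1 month thus lay above both other groups without overlap, and 1 of them, replicate 1, lay above the other two. WT multinucleated cultures of 6 months had 3.98% ± 0.0461 (SD, n = 3) and those of 20 months 3.99% ± 0.0635, while KO cultures of 6 months had 3.97% ± 0.134, so these 3 groups overlapped. The 2-day cultures had 4.42% ± 0.122 at 6 months and 4.14% ± 0.203 at 20 months, and set 519 had 3.14% ± 0.194 and 3.33% ± 0.0521 at 1 and 6 months. With 3 libraries against 3, a two-sided exact permutation test of such a share cannot reach the threshold of 0.05, and none is given. Set D1, with the lowest share, had the highest summed osteoclast markers and 5.97% to 6.37% of counts from the mitochondrial genome, against 1.96% to 2.09% in WT cultures of 1 month. WT and KO cultures of 6 months, with nearly the same share, had 4.07% to 4.30% and 1.81% to 1.90% of mitochondrial counts. Their osteoclast markers summed to 20849 to 22500 and 2479 to 2778 CPM. The part of the markers and of mitochondrial counts in the result was not tested.

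**Figure D1:**
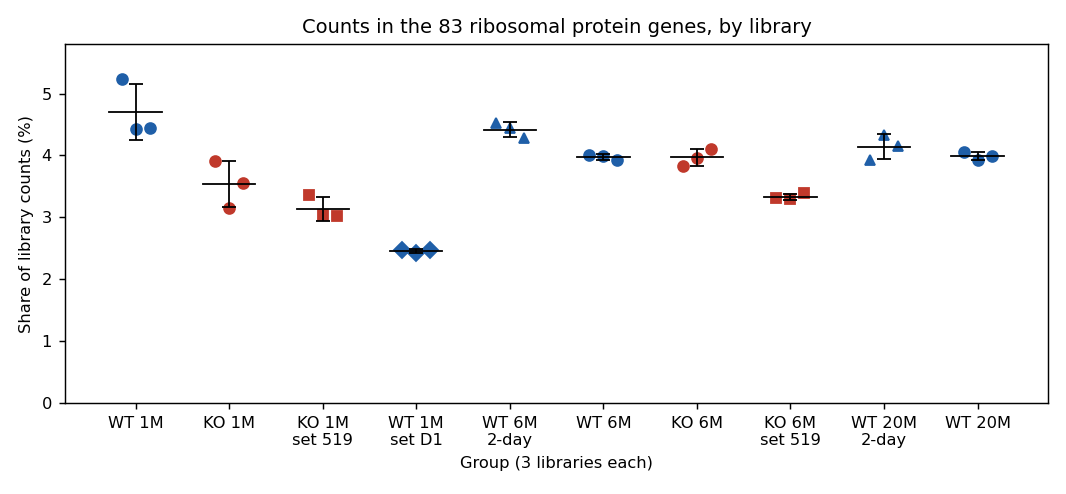
Share of all counts, in percent, that fell in the 83 ribosomal protein genes, for each of the 30 libraries (points; blue WT, red KO; squares set 519, diamonds set D1, triangles 2-day cultures), with the mean and SD of each group of 3. The WT libraries of 1 month lie between 4.43% and 5.23% and the set D1 libraries between 2.42% and 2.47%.

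Levels between genes are compared here as CPM per kilobase of transcript, averaged over the 30 libraries. Rpl10, an X-linked gene whose protein joins the large subunit last, had the highest level at 1242, followed by Rplp1, a protein of the flexible stalk that recruits translation factors, at 1169.5. At the other end, Rpl10l, a germ-cell copy of Rpl10, had 0 counts in all 30 libraries, which allows a level of up to 0.00579 CPM over the pooled libraries, a limit that covers counting error only. Rpl3l, the copy of Rpl3 known from striated muscle, had 122 counts in 28 libraries and a level of 0.169 CPM per kilobase. Rpl24 had only 530 counts, but 47.0% of its exon bases also belong to the gene Gm28037 and 80.1% of its 100-base stretches recur in other genes, so its low count cannot be read as low expression. That overlap was a wider matter. Of the 81 tested members, 74 share at least 1 stretch of 100 bases with another gene, pseudogenes among them, 34 share over 50% of their stretches, and the deposited counts do not state how such reads were assigned. All values below are TMM-scaled CPM, in which library totals are adjusted so that most genes keep the same level.

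The first comparison asks what loss of Terc changed at 1 month. Ribosomal protein genes were lower in KO than in WT cultures almost throughout: 71 of 81 fell and none rose, while 20.8% of all 15310 tested genes fell and 20.7% rose, 41.4% in all (edgeR quasi-likelihood test, adjusted p under 0.05). The shift was small for each gene, with a median log2 fold change of -0.31 against 0.00 over all tested genes. Both subunits took part, with 44 of 49 large-subunit and 27 of 32 small-subunit members lower. Other genes with transcripts under 1000 bases, as most members have, had a median of -0.02.

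The largest fall at 1 month was that of Rpl13a, a large-subunit protein that in macrophages also leaves the ribosome to silence inflammatory messages. Its level was 37.2, 34.5 and 36.5 CPM in the WT libraries and 24.4, 20.6 and 21.8 CPM in the KO libraries. The groups did not overlap (log2 fold change -0.69 ± 0.09, adjusted p = 1e-07). Rpl22l1, the paralogue of Rpl22, stood at 35.9, 24.9 and 27.3 CPM in WT and 23.0, 13.6 and 19.6 CPM in KO libraries (log2 fold change -0.63 ± 0.13, adjusted p = 0.00017). Rpl8, which lies near the peptidyl transferase centre, stood at 1114, 963 and 993 CPM and 769, 612 and 735 CPM (log2 fold change -0.54 ± 0.07, adjusted p = 1.3e-07). All KO libraries were below all WT libraries for these 3 genes. Among the stalk proteins, Rplp0, the base of the stalk, was 1.20-fold lower (log2 fold change -0.26 ± 0.07, adjusted p = 0.0033), Rplp2 had a log2 fold change of -0.20 ± 0.07 (adjusted p = 0.029) and Rplp1 did not pass the test at -0.12 ± 0.08 (adjusted p = 0.25). The other 9 members that did not pass were Rps10, Rps21, Rps27, Rps27l, Rps29, Rpl38, Rpl39 and the low-count Rpl24 and Rpl39l.

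The WT library with the highest share of ribosomal counts carried part of the count at 1 month: without WT replicate 1, 45 members fell and none rose. Of the genes named above, Rplp2 lost its call without that library (adjusted p = 0.27) and without KO replicate 2 (0.30) or 4 (0.086). A fit with only these 2 groups gave 40 lower and none higher. These 2 groups were more scattered than the rest, whereas the main fit pools scatter over all groups. The SD of the share of counts was 0.455 in WT and 0.378 in KO cultures of 1 month, against 0.0311 to 0.203 in the other groups.

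At 6 months the comparison of KO with WT cultures took another form. Members split, with 29 of 81 higher and 10 lower in KO cultures, against 30.5% and 29.5% of all tested genes, so the share that changed was not above the background. The median was 0.10, below the 0.22 of other short genes. Of the 71 members that fell at 1 month, 24 were higher at 6 months, 10 were lower and 37 did not pass. All 11 osteoclast markers were lower in KO cultures of 6 months, at 2479 to 2778 CPM in sum, and 8 of 10 proliferation markers were higher; their part in the result was not tested.

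The members that rose in KO cultures at 6 months were led by Rpl13 and the acidic stalk proteins. Rpl13 stood at 388, 391 and 359.9 CPM in WT and 626, 609 and 608 CPM in KO libraries (log2 fold change 0.69 ± 0.08, adjusted p = 1.2e-08). Rplp1 stood at 479, 469 and 447 CPM and 663, 699 and 778 CPM (log2 fold change 0.62 ± 0.09, adjusted p = 1.3e-07). Rplp2 stood at 153, 160.2 and 155 CPM and 233, 245 and 228 CPM (log2 fold change 0.59 ± 0.07, adjusted p = 2.2e-08). In each of the 3 the groups were fully apart. The opposite was seen for Rps26, a small-subunit protein at the exit of the messenger RNA channel, which stood at 544, 559 and 522 CPM in WT and 316, 341 and 361 CPM in KO libraries (log2 fold change -0.67 ± 0.09, adjusted p = 1.4e-07). Rpl23a, which sits at the exit of the nascent chain, stood at 607, 602 and 615 CPM and 403, 395 and 408 CPM (log2 fold change -0.60 ± 0.07, adjusted p = 7.1e-09). Rpl13a was again lower, at 41.9, 42.4 and 42.0 CPM in WT and 32.3, 31.6 and 37.0 CPM in KO libraries (log2 fold change -0.32 ± 0.08, adjusted p = 0.0014). Rpl23a shares 62.3% of its exon bases with Tlcd1 and Snord42b, and Rpl13a 35.4% with Gm45713, Mir5121 and Snord33, whereas Rps26 shares none.

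The balance of higher and lower members at 6 months moved with the scaling. With library totals alone, 21 members were higher and 19 lower, and with offsets for GC content and transcript length, 17 were higher and 38 lower, with Rpl13, Rplp1 and Rplp2 still higher (0.28, 0.24 and 0.26 on the log2 scale) and Rps26 and Rpl23a still lower (-0.73 and -0.66). Rpl13a became -0.61.

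The genotype difference itself differed between ages. The difference KO minus WT at 6 months less that at 1 month was positive for 59 of 81 members and negative for none (adjusted p under 0.05), against 27.1% and 21.6% of all tested genes. It was largest for Rpl13 at 1.06 ± 0.12 on the log2 scale (adjusted p = 4.7e-09) and for Rps19, a small-subunit protein mutated in Diamond-Blackfan anaemia, at 0.91 ± 0.12 (adjusted p = 5.6e-08). With the GC and length offsets the count was 44 positive and 7 negative, with Rpl13 at 0.61 and Rps19 at 0.45. The members that became negative were Rpl23, Rpl23a, Rpl31, Rpl35, Rpl39l, Rps14 and Rps26. All these values use the WT libraries of 1 month outside set D1. Against set D1, KO cultures of 1 month had a median log2 fold change of 0.72, above the 0.10 of KO against WT at 6 months. The direction between ages thus depended on which WT libraries of 1 month were used, and it was not tested with set D1.

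Within each genotype, KO cultures of 6 months had 11 members higher and 2 lower than KO cultures of 1 month, against 19.7% and 17.8% of all genes, and WT cultures of 6 months had 61 lower than WT cultures of 1 month. The KO count moved with the scaling, to 56 higher and 1 lower with the GC and length offsets, 35 and 1 with library totals and 5 and 1 in a fit of these 2 groups. The share of all genes called is not given here for these alternatives, so the counts cannot be set against a background. It also moved with single libraries, since without KO replicate 2 of 1 month 3 were higher and 11 lower, without its replicate 1 26 and 1, and without its replicate 4 7 and 1. Without replicate 2 or 3 of the KO cultures of 6 months, 6 and 5 were higher.

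**Figure D2:**
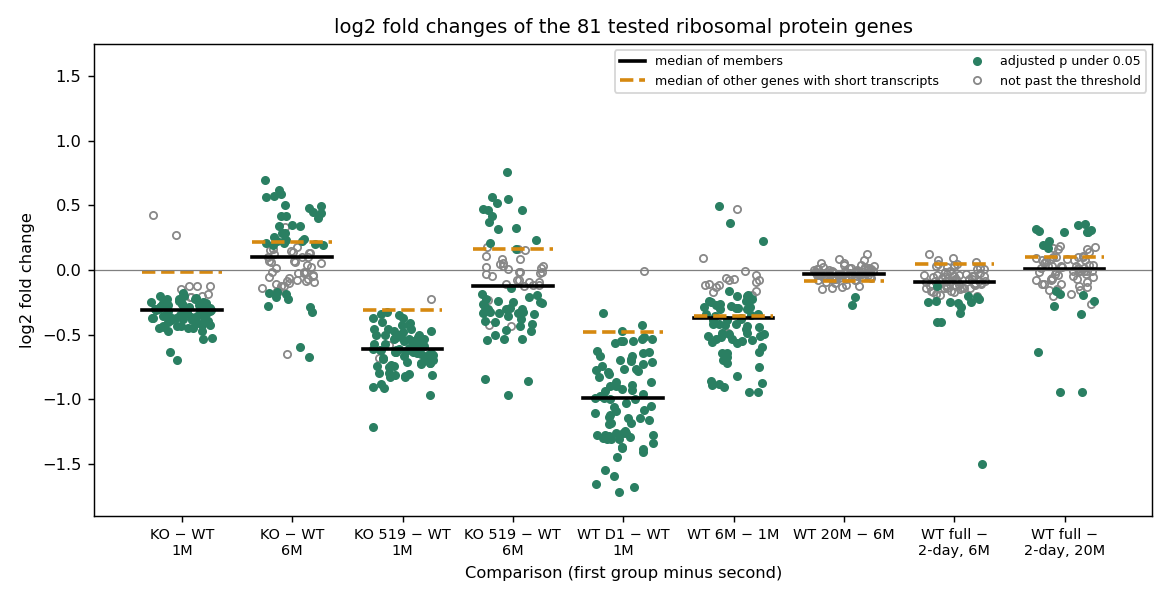
log2 fold change of each of the 81 tested ribosomal protein genes (points; filled where the adjusted p was under 0.05) in 9 comparisons, with the median of the members (black line) and of other genes with transcripts under 1000 bases (dashed line). At 1 month all members except Rpl24 and Rpl39l lie below 0 in KO cultures, with a median of -0.31, and at 6 months they spread on both sides of 0.

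Age was compared first between the WT multinucleated cultures of 1 and 6 months, outside sets 519 and D1. At 6 months 61 members were lower and 3 higher than at 1 month, against 32.5% and 31.2% of all tested genes. The members' median was -0.37, and other short genes had a median of -0.35. The largest falls were those of Rps27l, Rplp2 and Rpl13. Rps27l, a p53 target that is the paralogue of Rps27, stood at 138, 106 and 105 CPM at 1 month and 54.8, 61.1 and 64.6 CPM at 6 months (log2 fold change -0.95 ± 0.09, adjusted p = 3.4e-11). Rplp2 fell from 337, 288 and 274 CPM to the 6-month values given above (log2 fold change -0.94 ± 0.07, adjusted p = 5.2e-13), and Rpl13 from 791, 667 and 677 CPM (log2 fold change -0.91 ± 0.08, adjusted p = 3e-11). The 3 members that rose were Rps26, from 418, 357 and 379 CPM (log2 fold change 0.49 ± 0.09, adjusted p = 2.2e-05), Rpl23a, from 542, 443 and 431 CPM (log2 fold change 0.37 ± 0.07, adjusted p = 3.4e-05), and Rpl13a (log2 fold change 0.22 ± 0.08, adjusted p = 0.022). These are the same 3 genes that led the falls in KO cultures at 6 months, and both comparisons use the WT libraries of 6 months. Rpl13a lost its call without WT replicate 3 of 1 month (adjusted p = 0.12) or replicate 3 (0.078) or 4 (0.051) of 6 months. With the GC and length offsets Rplp2 was -0.48, Rpl13 -0.35, Rps26 0.78, Rpl23a 0.67 and Rpl13a 0.63, and the count was 27 lower and 24 higher. Markers differed between these ages too. At 1 and 6 months, summed osteoclast markers were 2378 to 2507 and 20849 to 22500 CPM, macrophage markers 29013 to 31597 and 11628 to 11805 CPM, proliferation markers 2405 to 2525 and 1612 to 1699.7 CPM and stromal markers 566 to 643 and 1376 to 1799.8 CPM. Mitochondrial counts were 1.96% to 2.09% and 4.07% to 4.30%, and the part of all these in the result was not tested. Set D1, also WT of 1 month, had a median of -0.99 against the same 1-month libraries, further down than the 6-month cultures. Its share of counts in the members was 2.42% to 2.47%, against 3.93% to 4.02% at 6 months. The direction of the age difference thus depended on which WT libraries of 1 month were used. Set D1 was not tested against the other ages.

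Between 6 and 20 months of age, WT multinucleated cultures gave 2 calls. Rps27l and Rpl7l1, the paralogue of Rpl7, passed the test, both were lower at 20 months, against 6.9% of all tested genes that were lower and 7.39% that were higher. Rps27l stood at 49.6, 49.8 and 50.004 CPM at 20 months (log2 fold change -0.27 ± 0.09, adjusted p = 0.042). Rpl7l1 stood at 159, 160.1 and 156 CPM at 6 months and 132, 140.2 and 140.1 CPM at 20 months (log2 fold change -0.21 ± 0.05, adjusted p = 0.0066). For both genes the libraries of the 2 ages did not overlap. The count was 1 without replicate 3 or 4 of the 6-month cultures or replicate 2 or 4 of the 20-month cultures, and 0 without replicate 1 of the 20-month cultures. Rps27l was lost in each case, and Rpl7l1 in the last. Rps27l was -0.15 with the GC and length offsets and did not pass, while Rpl7l1 stayed lower at -0.17. With these offsets the balance turned to more members higher than lower at 20 months. Those that passed upward were Rpl7, Rpl9, Rpl10, Rpl17, Rpl39, Rps3a1, Rps4x, Rps9, Rps25 and Rps27. From 1 to 20 months, with the same WT libraries of 1 month, 64 members were lower and 3 higher, against 34.4% and 34.2% of all genes (68.6% in either direction). With the GC and length offsets these were 24 and 35. In set D1, also WT of 1 month, the share of counts in the members was 2.42% to 2.47%, below the 3.92% to 4.05% at 20 months.

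In 2-day cultures 20 members were lower at 20 than at 6 months and none was higher, against 11.3% and 7.48% of all tested genes. Rpl37 led them, at 279, 297 and 303 CPM at 6 months and 205, 256 and 222 CPM at 20 months (log2 fold change -0.36 ± 0.08, adjusted p = 0.0013), and was named after its value was seen. That count fell to 3 without replicate 1 and 5 without replicate 3 of the 20-month 2-day cultures, and to 9, 3 and 8 without replicates 1, 2 and 4 of the 6-month 2-day cultures. It was 36 in a fit of these 2 groups, 33 without the filter, 9 with library totals, and 12 with 4 higher under the GC and length offsets. At 6 and 20 months, stromal markers summed to 5485 to 5616 and 3612 to 3849.5 CPM and osteoclast markers to 3672 to 4307 and 4700 to 4857 CPM, and their part in the result was not tested.

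The step from 2 days of cytokines to multinucleated cells, compared within WT donors of one age, gave few calls among the members. Summed osteoclast markers were 3672 to 4307 CPM in 2-day and 20849 to 22500 CPM in multinucleated cultures of 6 months. At 6 months 14 members were lower in multinucleated cultures and none was higher, against 27.4% and 23.4% of all tested genes. Rps2, a small-subunit protein that lines the messenger RNA entry, stood at 1366, 1397 and 1299 CPM at 2 days and 1047, 1054 and 980.2 CPM in multinucleated cultures (log2 fold change -0.40 ± 0.07, adjusted p = 1.8e-05). Rps27l fell from 87.9, 77.3 and 73.0 CPM (log2 fold change -0.40 ± 0.09, adjusted p = 0.00036) and Rplp2 from 195, 204 and 191 CPM (log2 fold change -0.33 ± 0.07, adjusted p = 0.00031). At 20 months 11 members were higher and 9 lower, against 25.4% and 26.9% of all genes. Rps27l and Rps2 were lower at this age too (-0.63 ± 0.09, adjusted p = 4.7e-07, and -0.27 ± 0.07, adjusted p = 0.0017), as was Rpl7l1 (-0.34 ± 0.05, adjusted p = 2e-06). Among the members that rose were Rpl37 (0.35 ± 0.08, adjusted p = 0.00036) and Rps16 (0.31 ± 0.08, adjusted p = 0.0015). No member passed a test of the difference between the 2 ages in this step, against 12.4% of all genes (edgeR), and 9 had an unadjusted p under 0.05. DESeq2 called 1, library totals gave 1, a fit of the compared groups 12, no filter 10 and the GC and length offsets 13, in each case with a larger step value at 20 months.

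The count at 6 months was 8 without replicate 1 of the 2-day cultures, and 62 lower with the GC and length offsets. At 20 months the balance turned to 6 higher and 20 lower with library totals alone, to 10 higher and 43 lower with the offsets, and to 8 higher and 10 lower without replicate 1 of the 2-day cultures.

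The libraries of set 519 repeat the KO genotype at both ages, and set D1 repeats the WT genotype at 1 month, so each can be set beside libraries with the same labelled genotype, age and stage. The cells were not alike otherwise: set D1 had the high Xist given above and 0 counts of Y-linked genes, against 646 to 4705 in every other library. In set 519 at 1 month, 61 members were lower and none higher than in the KO libraries without the number, against 28.2% and 21.9% of all genes, with a median of -0.29. This count with the GC and length offsets was 17 lower and 26 higher. The median of KO minus WT at the same age, which uses the same KO libraries, was -0.31. At 1 month, osteoclast markers summed to 7050.2 to 8268 CPM in set 519 and 675 to 738 CPM in the other KO libraries, macrophage markers to 28311 to 33395 and 47266 to 50775 CPM and proliferation markers to 762 to 797 and 1725 to 1772 CPM. At 6 months osteoclast markers summed to 26593 to 27790 and 2479 to 2778 CPM, and the part of these in the result was not tested. Of the members, at 6 months 44 were lower and 2 higher, against 26.5% and 22.6%. In set D1 80 members were lower and none higher than in the other WT libraries of 1 month, against 36.9% and 37.5% of all genes, with a median of -0.99, larger in size than in any comparison of genotypes. Other short genes had a median of -0.48, and with the GC and length offsets 66 members were lower and 3 higher. Rplp1 stood at 286, 242 and 278 CPM in set D1 and 999, 804 and 782 CPM in the other WT libraries of that age (log2 fold change -1.68 ± 0.09, adjusted p = 2.9e-18). Rps12, a small-subunit protein, stood at 241, 218 and 219 CPM and 842, 701 and 689.7 CPM (log2 fold change -1.72 ± 0.10, adjusted p = 8.4e-17), and is named for having the largest fall. With the offsets Rplp1 was -0.83 and Rps12 -1.12. Of the 4 X-linked members, Rpl10 (-0.57), Rpl36a (-0.92), Rpl39 (-0.99) and Rps4x (-0.80), log2 fold changes were within the range of the other members, and that of Rpl10 became 0.01 with the offsets.

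Compared with WT, set 519 had nearly all members lower at 1 month and calls in both directions at 6 months. At 1 month 78 members were lower and none higher, against 29.8% and 27.2% of all genes (57.0% in either direction), with a median of -0.61. Rpl22l1 stood at 12.6, 13.1 and 11.7 CPM in set 519 (log2 fold change -1.21 ± 0.16, adjusted p = 8.4e-08), Rpl13a at 22.0, 18.6 and 13.1 CPM (log2 fold change -0.97 ± 0.11, adjusted p = 1.4e-09) and Rpl14 at 402, 323 and 327 CPM against 740.3, 624 and 619 CPM in WT (log2 fold change -0.91 ± 0.08, adjusted p = 4.9e-12). All 3 were below every WT library. At 6 months 37 were lower and 14 higher, against 25.9% and 25.7%. The 3 lowest were again Rpl23a at 323, 324 and 288 CPM (log2 fold change -0.97 ± 0.07, adjusted p = 3.3e-13), Rpl13a at 22.2, 27.7 and 21.2 CPM (log2 fold change -0.86 ± 0.10, adjusted p = 4.5e-09) and Rps26 at 307, 298 and 302 CPM (log2 fold change -0.84 ± 0.09, adjusted p = 3.6e-09). Among the highest, Rps29, a zinc-binding protein of the small-subunit head, stood at 216, 208 and 277 CPM against 138, 129 and 148 CPM in WT (log2 fold change 0.76 ± 0.11, adjusted p = 2.7e-07), and Rplp1 (0.57 ± 0.09, adjusted p = 1e-06) and Rps20 (0.55 ± 0.10, adjusted p = 1.2e-05) rose too. Rpl22l1 and Rpl14 under the GC and length offsets were -0.65 and -0.56 at 1 month, and Rps29 and Rplp1 0.47 and 0.11 at 6 months. The comparisons of both KO sets use the same WT libraries, and set 519 has no WT libraries of its own, so set and genotype cannot be told apart within it.

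Set D1 as the WT reference turned the genotype difference at 1 month around. Against it 72 members were higher and 0 lower in KO cultures, against 38.2% and 35.5% of all genes, and with the GC and length offsets 42 were higher and 19 lower. Set 519 against set D1 gave 56 higher and 4 lower, against 31.1% and 31.2%. The direction of the genotype difference at 1 month therefore depended on which WT libraries were used. Osteoclast markers differed too, at 44282 to 46720 CPM in set D1 and 2378 to 2507 CPM in the other WT libraries of 1 month, as did 10 proliferation markers, at 404 to 430.2 and 2405 to 2525 CPM, and 11 stromal markers, at 3733 to 4058 and 566 to 643 CPM. Set D1 also differed in Xist and Y-linked counts. Their part in the result was not tested.

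Across the 30 libraries the members rose and fell largely together. In a principal component analysis of the 81 tested members (log2 scale), 65.6% of the variance lay on the first component, which gave all 81 members weights of the same sign. Libraries of WT cultures of 1 month lay at one end (2.93 to 5.45) and set D1 at the other (-5.90 to -5.21). The second component held 23.0% and divided the members, 46 with positive and 35 with negative weights. It placed WT cultures of 6 and 20 months at 1.11 to 2.13, all KO libraries at -2.30 to -0.56, and the WT cultures of 1 month at -0.61 to -0.19, so the WT libraries of 1 month lay on the KO side of 0, and set D1 at 0.24 to 0.56 on the other. Toward the WT cultures of 6 and 20 months the strongest weights were those of Rpl39l, Rpl23a, Rpl13a and Rps26, and toward the other side those of Rps29, Rplp1, Rps28 and Rps12. Components are descriptions of these libraries, and they share the depth and GC differences of the sets.

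**Figure D3:**
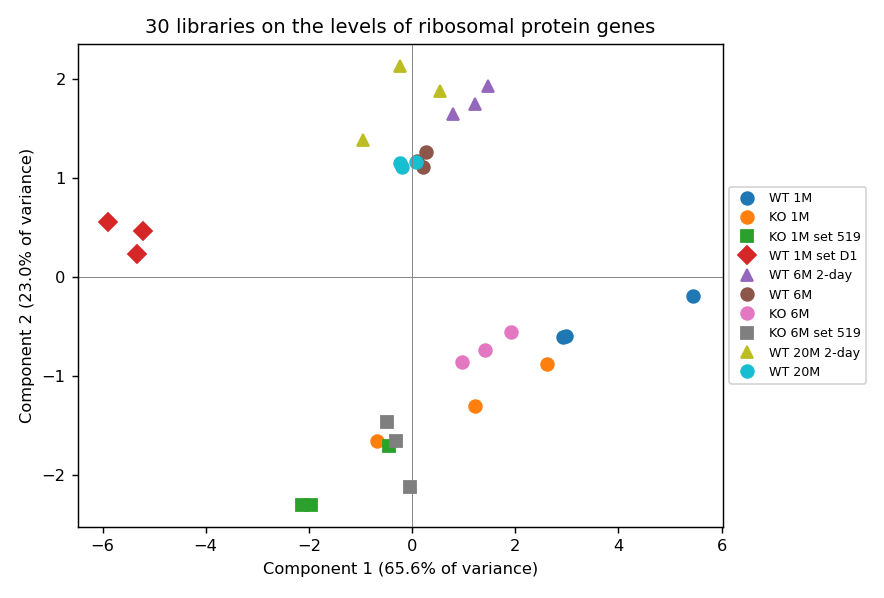
The 30 libraries placed by the first component (x axis, 65.6% of variance) and second component (y axis, 23.0%) of the log2 levels of the 81 tested members, one symbol per library and one color per group. Set D1 lies alone on the left, and WT libraries of 6 and 20 months lie above 1 on the second component.

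**Figure D4:**
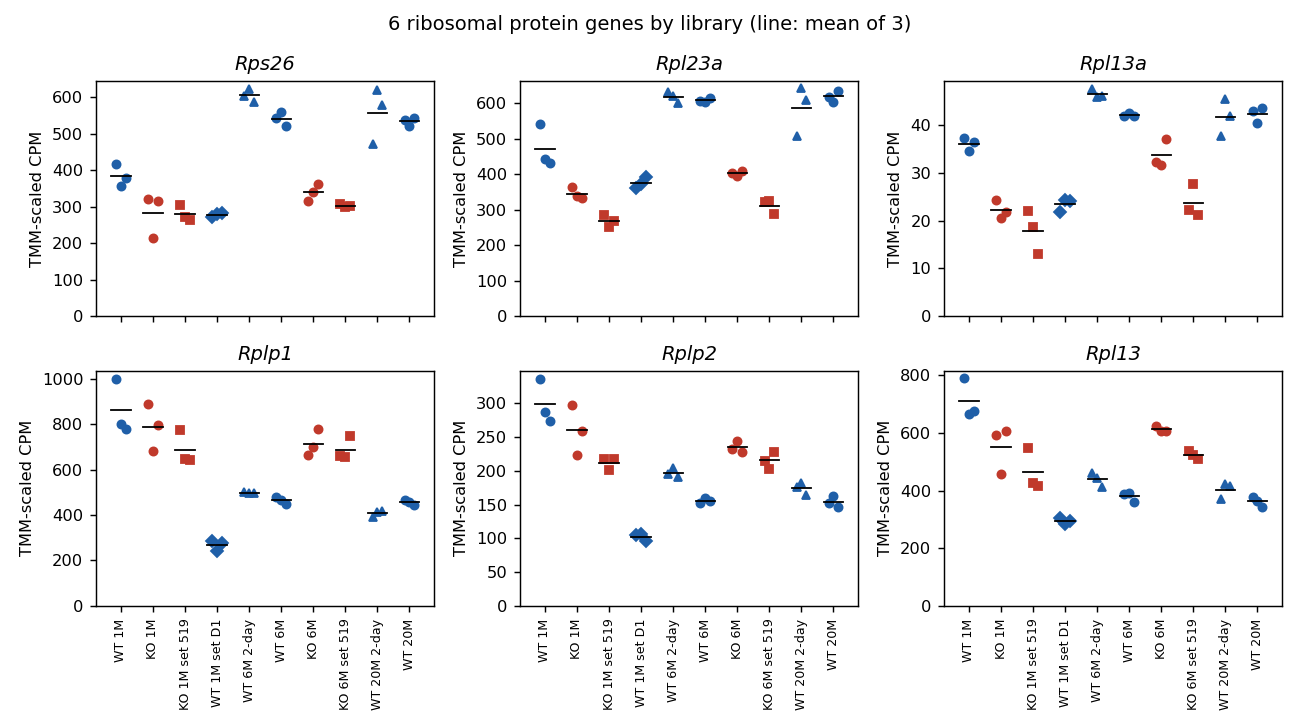
TMM-scaled CPM in each library (points; blue WT, red KO; line the mean of 3) for 3 members with positive second-component weights (Rps26, Rpl23a, Rpl13a) and 3 with negative weights (Rplp1, Rplp2, Rpl13). In WT cultures of 6 and 20 months the first 3 are above, and the second 3 below, their levels in KO cultures of 6 months.

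Promoters are shown for members from both sides of the second component, as examples of their start sites. RefSeq start sites on GRCm38.p6 were matched by symbol for 63 of the 83 members, and the first one listed for a gene is shown. Each line gives 40 bases before and 20 after the start, 5′ to 3′, and the capitals mark a C followed by at least 6 pyrimidines within 15 bases before to 25 after the start, on the gene's own strand.
Rpl13a, chr7:45128726-45128785, minus strand: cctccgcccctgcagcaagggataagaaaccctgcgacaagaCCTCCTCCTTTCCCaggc
Rps26, chr10:128626487-128626546, minus strand: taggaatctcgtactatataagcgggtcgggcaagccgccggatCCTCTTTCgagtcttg
Rpl22l1, chr3:28805468-28805527, plus strand: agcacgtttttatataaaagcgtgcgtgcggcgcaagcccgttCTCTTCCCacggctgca
Rplp2, chr7:141447611-141447670, plus strand: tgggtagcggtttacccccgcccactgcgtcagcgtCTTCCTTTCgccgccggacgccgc
Rpl13, chr8:123102310-123102369, plus strand: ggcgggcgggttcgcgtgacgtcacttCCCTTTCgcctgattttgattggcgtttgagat
Rps12, chr10:23787190-23787249, minus strand: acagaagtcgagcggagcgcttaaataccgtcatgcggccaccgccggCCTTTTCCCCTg
Rps28, chr17:33824543-33824602, minus strand: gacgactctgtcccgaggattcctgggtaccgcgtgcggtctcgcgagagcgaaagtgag
The first 3 have positive weights on the second component and the other 4 negative weights. Members of both sides carried the run, and in Rps28 these letters are not in the window. Over the matched members 33 of 63 (52.4%) had it, against 20.6% of the 27025 genes in the table. By side, 17 of 35 members with positive weights (48.6%) and 16 of 26 with negative weights (61.5%) had it.

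Other motifs were searched in the 300 bases from 250 before to 50 after each start, on both strands. CCGGAAG, the core bound by ETS factors such as GABP, was present in 26 of 63 members (41.3%) and in 9.93% of all genes. CTCTTTCC, a pyrimidine run that can overlap the one above, was present in 15.9% and 3.57%. AAGATGGC, the core of YY1, was present in 9.52% and 3.19%, and TATAAA in 11.1% and 15.7%. The ETS core was as frequent on both sides of the second component, at 42.9% and 42.3%. It stands in the promoter of Rps7, a small-subunit protein that was lower in KO cultures at both ages (-0.40 ± 0.08, adjusted p = 0.00011, and -0.21 ± 0.08, adjusted p = 0.02), here with 60 bases before and 20 after the start and the core, read on the other strand, in capitals.
Rps7, chr12:28635934-28636013, minus strand: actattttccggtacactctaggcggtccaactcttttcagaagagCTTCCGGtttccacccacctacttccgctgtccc
A match is a description of these letters, and no binding was measured. At 6 months Rps7 lost its call without KO replicate 1 (adjusted p = 0.13) or 2 (0.083) or WT replicate 2 (0.069) or 3 (0.093).

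Among members with roles outside the mature ribosome, Rpl5 and Rpl11 form with 5S RNA the particle that binds Mdm2 and stabilizes p53. Rpl5 stood at 770, 645 and 675 CPM in WT and 637, 526 and 534 CPM in KO libraries of 1 month (log2 fold change -0.30 ± 0.06, adjusted p = 8.7e-05). Rpl11 stood at 639, 509 and 516 CPM and 523, 393 and 449.7 CPM, with overlapping groups (log2 fold change -0.28 ± 0.07, adjusted p = 0.0017). Neither passed the test at 6 months (adjusted p = 0.27 and 0.15). Of 10 genes of the p53 response, 6 were higher and 1 lower in KO cultures of 1 month, and 6 were higher and 2 lower at 6 months. Of all tested genes, 20.7% were higher and 20.8% lower at 1 month, and 30.5% and 29.5% at 6 months. Eda2r, a receptor gene induced by p53, had the largest rise at 1 month (log2 fold change 1.58 ± 0.18, adjusted p = 8.6e-09).

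Rps6, the small-subunit protein phosphorylated downstream of mTOR, stood at 885, 733 and 743 CPM in WT and 655, 515 and 556 CPM in KO libraries of 1 month (log2 fold change -0.45 ± 0.07, adjusted p = 1.8e-06). At 6 months it was also lower in KO libraries, at 632, 663 and 678 against 752, 749 and 737 CPM (log2 fold change -0.18 ± 0.07, adjusted p = 0.021). Rps14, lost in a form of myelodysplasia with failure of red cell formation, was lower in KO cultures at both ages (-0.27 ± 0.08, adjusted p = 0.0069, and -0.29 ± 0.08, adjusted p = 0.0029). Rps6 lost its call at 6 months without KO replicate 1 (adjusted p = 0.095) or WT replicate 2 (0.057) or 3 (0.072), and Rps14 at 1 month without KO replicate 2 (0.12). Rps19 was lower at 1 month and higher at 6 months, at 464, 391 and 385 CPM in WT and 373, 282 and 320.1 CPM in KO libraries of 1 month (log2 fold change -0.35 ± 0.08, adjusted p = 0.00086), and 230, 222 and 222 CPM and 325, 339 and 334 CPM at 6 months (log2 fold change 0.57 ± 0.08, adjusted p = 3.8e-07). Rpsa, which also serves as a laminin receptor, was lower in KO cultures of 1 month at 1455, 1123 and 1310.4 against 1920.2, 1594 and 1572 CPM (log2 fold change -0.39 ± 0.07, adjusted p = 6.7e-05) and did not pass at 6 months (adjusted p = 0.55). The 6-month values with the GC and length offsets were 0.14 for Rps19, -0.31 for Rps6 and -0.56 for Rps14. Rplp0, a common reference gene in PCR work, ranged over group means from 912 ± 40.8 CPM in set D1 to 1661 ± 72.7 CPM in the other WT libraries of 1 month (SD, n = 3 each).

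Paralogue pairs changed their balance, given here as the share of the paralogue in the length-scaled counts of the pair, with no test of the share. Of the 100-base stretches of Rps27, 98.4% recur in other genes, and of those of Rps27l 0%. How such reads were assigned is not stated, so the size of the Rps27l share may be off. Rps27l made up 29.9%, 28.8% and 29.7% of its pair in WT libraries of 1 month, 20.1%, 23.9% and 22.2% at 6 months and 17.7%, 18.9% and 17.7% at 20 months. The 3 ages did not overlap in these libraries. Set D1, also WT of 1 month, had 18.4% to 23.0%, which overlapped the libraries of 6 and 20 months. In 2-day cultures the share was 26.5%, 27.1% and 26.2% at 6 months and 25.5%, 25.2% and 24.4% at 20 months, above the multinucleated cultures of the same age. In KO libraries outside set 519 it was 29.8%, 32.9% and 29.6% at 1 month and 26.7%, 27.4% and 25.9% at 6 months. In set 519 it was 22.2% to 24.6% at 1 month and 23.4% to 25.4% at 6 months, with overlap. Rps27l itself was higher in KO than in WT cultures of 6 months, at 80.7, 83.5 and 80.7 against 54.8, 61.1 and 64.6 CPM (log2 fold change 0.44 ± 0.09, adjusted p = 7.7e-05), while Rps27 did not pass (log2 fold change 0.07 ± 0.09, adjusted p = 0.5).

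Rpl22l1 made up 10.0% ± 0.729 (SD, n = 3) of the pair in WT cultures of 1 month, 7.93% ± 0.840 in KO cultures of that age and 6.21% ± 0.224 in set 519. The 3 groups did not overlap. At 6 months WT and KO cultures had 8.94% ± 0.400 and 9.36% ± 0.520, with overlapping libraries. Rpl39l, a copy of Rpl39 known from sperm-forming cells, made up 3.23%, 3.52% and 3.24% of its pair in 2-day cultures of 6 months and 1.80%, 1.13% and 1.36% in multinucleated cultures of that age. Its level fell from 4.80, 4.41 and 3.86 CPM to 1.87, 1.21 and 1.55 CPM (log2 fold change -1.50 ± 0.29, adjusted p = 3.8e-05), and at 20 months from 1.92, 2.89 and 3.09 CPM to 1.61, 1.77 and 0.815 CPM (log2 fold change -0.94 ± 0.31, adjusted p = 0.01). Few counts stand behind these levels, 238 and 87 at 6 months and 141 and 80 at 20 months over the 3 libraries of a group. At 20 months the call was lost without replicate 3 of the 2-day cultures (adjusted p = 0.056) or replicate 4 of the multinucleated cultures (0.096).

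Rpl7l1 made up 9.29% ± 0.375 of its pair in 2-day cultures and 8.63% ± 0.0606 in multinucleated cultures of 6 months, and 8.69% ± 0.148 and 7.37% ± 0.185 at 20 months. Rpl3l stayed at or under 0.0860% of its pair in every library. Rpl36al, which the naming rule leaves out, made up 31.8% to 39.1% of its pair with Rpl36a, more than any other paralogue in each group. Of the 100-base stretches of Rpl36a, 83.6% recur in other genes, so the size of this share may be off too. Rpl36al fell in KO cultures of 1 month (log2 fold change -0.25 ± 0.07, adjusted p = 0.0081) and did not pass at 6 months (log2 fold change -0.12 ± 0.08, adjusted p = 0.18).

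**Figure D5:**
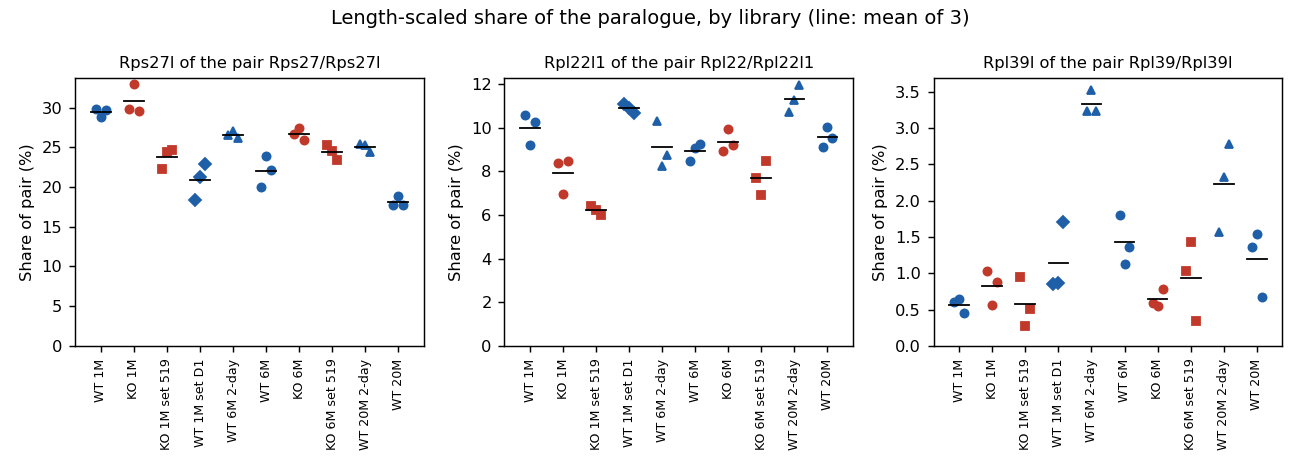
Share, in percent, of Rps27l, Rpl22l1 and Rpl39l in the length-scaled counts of their pairs, for each library (points; blue WT, red KO) with the mean of each group of 3 (line). The mean share of Rps27l is lowest in WT multinucleated cultures of 20 months and that of Rpl39l highest in 2-day cultures of 6 months.

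Other ribosomal proteins that the rule does not reach were read in the same fit. Fau, which encodes a small-subunit protein fused to a ubiquitin-like domain, was lower in KO cultures at 1 month (log2 fold change -0.31 ± 0.10, adjusted p = 0.013) and higher at 6 months (log2 fold change 0.88 ± 0.10, adjusted p = 3.8e-09). Rack1, a scaffold on the small subunit, had log2 fold changes of -0.31 ± 0.07 (adjusted p = 0.00042) and 0.39 ± 0.07 (adjusted p = 9.3e-06). Both thus fell in KO cultures of 1 month and rose at 6 months.

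Genes that build or serve ribosomes were also lower in KO cultures of 1 month than in the WT cultures outside set D1. Of 60 ribosome biogenesis genes, which process ribosomal RNA and assemble the subunits, 50 were lower and 1 higher, with a median log2 fold change of -0.36. Dkc1, the pseudouridine synthase that also belongs to telomerase, had the largest fall (log2 fold change -0.84 ± 0.06, adjusted p = 1.6e-13). Of 14 genes of RNA polymerase I, which transcribes ribosomal RNA, 11 were lower and 0 higher, of 19 translation factors 17 and 0, and of 77 mitochondrial ribosomal protein genes 46 and 0. Of all tested genes, 20.8% were lower and 20.7% higher. Myc, which drives ribosome production, was lower as well (log2 fold change -0.66 ± 0.06, adjusted p = 3.6e-10). Proliferation markers moved with these lists, with 9 of 10 lower and 1 higher, and so did osteoclast markers, with 11 of 11 lower, and macrophage markers, with 11 of 12 higher. Their part in the result was not tested.

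Across the stages of culture the biogenesis genes were lower as well. From 2-day to multinucleated WT cultures of 6 months, 52 of 60 biogenesis genes were lower and 0 higher, with a median of -0.36, beside 14 of 81 ribosomal protein genes with a median of -0.09. Of all tested genes, 27.4% were lower and 23.4% higher. At 20 months 56 of 60 biogenesis genes were lower and 2 higher, beside 9 lower and 11 higher of 81 ribosomal protein genes. The shares of all tested genes were 26.9% lower and 25.4% higher. With the GC and length offsets the ribosomal protein counts were 62 lower at 6 months and 43 lower at 20 months, so the gap between the lists depends on the scaling, and it was not tested. Nop58 and Nop56, core proteins of box C/D small nucleolar ribonucleoproteins, led the falls at 6 months (log2 fold change -0.69 ± 0.06, adjusted p = 9.4e-12, and -0.68 ± 0.06, adjusted p = 3.9e-12). All 10 proliferation markers were lower in multinucleated cultures at both ages, and their part in the result was not tested. In KO cultures of 6 months 15 of the 60 biogenesis genes were higher and 25 lower than in WT, against 30.5% and 29.5% of all tested genes.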

How the data were processed

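Polyadenylated RNA was measured in 30 libraries. The deposited values are counts per gene, made by the authors with featureCounts 1.6.0 on GRCm38 with Ensembl 88, per the file headers; the submitters' processing notes name HTSeq and mm10, and strand and multi-mapping settings are not given in the sources used here. Symbols were found for 99.4% of gene IDs. Genes passing edgeR's filterByExpr (15310 of 50686) were scaled by TMM and fitted over all 10 groups with the quasi-likelihood test (edgeR 4.0.16, R 4.3.3, Benjamini-Hochberg over all tested genes, threshold 0.05), a procedure tested on simulated data. Errors of log2 fold changes are standard errors. Named members were the 3 with the largest called changes in each direction per main comparison, with at least 5 CPM, paralogue pairs, members with set roles, and the highest and lowest levels; of other lists, the leading called genes. Members and lists were chosen with earlier results of these data known. Alternatives were DESeq2 1.42.0, other scalings, no filter, fits of the compared groups alone, a replicate block and leaving out each library. GC and length offsets, taken from genes outside the members, were added after seeing the data. Depth limits low-count members most. No protein sequences were used here, and some genes that the naming rule selects are not reported here.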

Additional observations from a re-analysis of the deposited data

Results flagged for a closer look

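The genotype difference was tested for a difference between ages. The value KO minus WT at 6 months less KO minus WT at 1 month passed the test upward in 59 of 81 members (edgeR quasi-likelihood test, Benjamini-Hochberg over all genes). Among members named for their role, this difference of log2 fold changes was 0.51 for Rplp0, 0.74 for Rplp1, 0.79 for Rplp2, 0.22 for Rpl5, 0.41 for Rpl11, 0.27 for Rps6, 0.91 for Rps19 and 0.44 for Rpsa. Among members of paralogue pairs it was 0.55 for Rpl3, 0.31 for Rpl7, 0.55 for Rpl22l1, 0.69 for Rpl39, 0.57 for Rps27l and 0.36 for Rps4x. Other members of both kinds did not pass: -0.01 for Rps14, 0.20 for Rpl10, 0.13 for Rpl22, 0.28 for Rps27, 0.13 for Rpl7l1, 0.13 for Rpl36a and -1.08 for Rpl39l. With the GC and length offsets the calls of Rpl11 (0.11), Rps6 (0.07) and Rpsa (0.05) ended, Rplp0, Rplp1, Rplp2 and Rps19 were 0.23, 0.32, 0.41 and 0.45, Rpl3, Rpl7 and Rps4x were 0.31, 0.18 and 0.20, and Rps14 (-0.34) and Rpl39l (-1.15) passed downward. Without WT replicate 1 of 1 month, Rpl5, Rps6 and Rpl22l1 lost their calls (adjusted p = 0.12, 0.10 and 0.070), as they did without KO replicate 2 of 1 month (0.076, 0.073 and 0.061). Rpl5 also lost it without KO replicate 4 of 1 month (0.078) or KO replicate 3 of 6 months (0.058). All these values use the WT libraries of 1 month outside set D1. Against set D1 the members' median for KO cultures of 1 month was 0.72, above the 0.10 at 6 months against WT. With set D1 the difference between ages was not tested.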

How the results depend on the processing

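Each value is the number of members called in the direction that had more calls in the comparison. Shares of all genes called under the alternatives are not given here. For KO set 519 at 6 against 1 month, not given above, the main fit called 17 of 81 members higher and 0 lower. Of all tested genes, 19.2% were higher and 13.2% lower in that comparison. DESeq2, DESeq2 size factors in edgeR and TMM without the ribosomal protein genes kept nearly every count within 1.5 times; the exceptions were KO set 519 at 6 against 1 month, with 5 under both DESeq2 settings, and the age difference of the culture step, with 1 under DESeq2. Fits with only the compared groups gave 40 for KO against WT at 1 month, 36 for set 519 against KO at 1 month, 5 for WT at 20 against 6 months, 36 for 2-day WT at 20 against 6 months, 27 and 20 for the culture step at 6 and 20 months, 5 for KO and 6 for set 519 at 6 against 1 month, and 12 for the age difference of the step. GC and length offsets, chosen after seeing the data, turned the balance for KO against WT at 6 months (17), set 519 against KO at 1 month (17), WT at 20 against 6 months (1), WT at 20 against 1 month (24) and the step at 20 months (10). They gave 42 for KO against set D1, 27 for WT at 6 against 1 month, 12 for 2-day WT at 20 against 6 months, 62 for the step at 6 months, 56 for KO at 6 against 1 month and 13 for the age difference of the step. Library totals turned the step at 20 months (6) and gave 1 for WT at 20 against 6 months, 9 for 2-day WT, 32 for the step at 6 months, 35 for KO and 7 for set 519 at 6 against 1 month and 1 for the age difference of the step; they moved the median of all genes by -0.12 to 0.15 on the log2 scale. Without the filter the counts were 33 for 2-day WT at 20 against 6 months, 17 for the step at 20 months, 26 for set 519 at 6 against 1 month and 10 for the age difference of the step. The cause was not tested.

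Leaving out 1 library at a time gave 45 to 78 for KO against WT at 1 month, 0 to 2 for WT at 20 against 6 months, 3 to 21 for 2-day WT at 20 against 6 months, 8 to 14 and 8 to 13 for the step at 6 and 20 months, 3 to 26 for KO and 3 to 34 for set 519 at 6 against 1 month, and 0 to 2 for the age difference of the step. The set 519 count was 34, 3 and 5 without replicates 2, 3 and 4 of 1 month and 8, 6 and 7 without replicates 2, 3 and 4 of 6 months. The age difference of the step reached 2 without replicate 2 of the 20-month 2-day cultures. The other libraries that moved a count stand beside it in the results.

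Replicate numbers did not pair the libraries: over 99 same-numbered pairs the correlation of deviations from group means ran from -0.15 to 0.26, with 2 over 0.1. With the replicate block every count stayed within 1.5 times, for example 73 for KO against WT at 1 month and 23 higher at 6 months.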

Other observations

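The ratio of large-subunit to small-subunit counts varied little, with group means from 1.39 in WT 2-day cultures of 20 months to 1.47 in set 519 of 6 months. KO groups had means of 1.46 or above, set 519 included, and WT groups 1.44 or below, set D1 included. Single libraries overlapped, with 1.4261 to 1.4809 in KO and 1.4321 to 1.4455 in WT cultures of 1 month.

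Within the members, GC content of the transcript went with the log2 fold change of KO against WT at 6 months (Spearman 0.34 across 81 members, which share libraries and depth and are not independent replicates), as it did across 13020 tested genes outside the members (0.26). At 1 month the values were -0.19 and 0.08, and for set D1 against the other WT libraries -0.36 and -0.16. These are descriptions, with no test.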
